A study of Mus musculus with 10 samples.

Results

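Prostaglandin and leukotriene enzymes were examined as a set of 10 genes, taken by their symbols from the 55367 genes of the deposited table. They are Hpgd, Ptgs1, Ptgs2, Ptges, Tbxas1, Alox5, Alox5ap, Ltc4s, Alox12 and Alox15, and all 10 were found. RNA came from mouse bone marrow cells labelled BMMC, from animals that drank water with 1% α-ketoglutarate (α-KG, an intermediate of the tricarboxylic acid cycle) or regular water. Each group held 5 libraries, called here α-KG 1 to 5 and water 1 to 5, and the numbers pair nothing. The labels used here name no strain, genotype, age, sex or length of treatment and do not tie each library to 1 animal, so the p-values reflect variation among libraries, which may be technical.

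Library totals ran from 14291364 to 22490118 counts. Values are in CPM (counts per 1e+06, after TMM scaling), and tests are those of edgeR, adjusted over all 15126 genes tested. Neutrophil markers summed to 3579 to 7084 CPM in α-KG and 3474 to 6362 CPM in water, and all 12 could be tested. At an adjusted p under 0.05 (edgeR), 2.39% of the 15126 genes rose in α-KG and 0.344% fell. Of 12 monocyte markers, 10 rose and 0 fell, and their sum was 385 to 746 CPM in α-KG and 296 to 389 CPM in water. Of 12 macrophage markers, 4 rose and 0 fell, with sums of 130 to 174 CPM in α-KG and 86.7 to 123 CPM in water. Of 10 T and NK cell markers, 2 rose (Cd3e and Il2rb) and 0 fell, with sums of 23.9 to 49.9 CPM in α-KG and 20.9 to 29.7 CPM in water. Erythroid markers summed to 13598 to 46295 CPM in α-KG and 14571 to 33586 CPM in water, and 0 of 10 passed. The globin gene Hba-a1 made the largest part of that sum, with a log2 fold change of 0.36. Over the 10 markers, 3 log2 fold changes were above 0, against 51.7% of all genes, and the median was -0.66. The α-KG 1 library had the lowest erythroid sum and the highest B cell sum of all 10 (467 CPM, against 84.7 to 178 CPM in the other α-KG libraries and 114 to 205 CPM in water). The small non-coding RNAs Rn7s1 and Rn7s2 took 24.0% to 31.0% of the counts in α-KG and 7.56% to 24.2% in water. In bulk marrow, fewer cells of a type and less RNA per cell cannot be told apart.

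Eicosanoids are short-lived lipid signals made from arachidonic acid. Cyclooxygenases, encoded by Ptgs1 and Ptgs2, turn arachidonic acid into a precursor from which Ptges makes prostaglandin E and Tbxas1 makes thromboxane, which activates platelets. Lipoxygenases act on the same acid: the product of Alox5, helped by the membrane protein encoded by Alox5ap, starts leukotriene synthesis, and Ltc4s makes the cysteinyl leukotrienes. Alox12 is known from platelets, Alox15 from eosinophils and some macrophages, and Hpgd encodes the dehydrogenase that inactivates prostaglandins.

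Hpgd, the gene for prostaglandin inactivation, rose 7.80-fold in α-KG and was the 1 gene of the set that passed the test. Of the 9 members tested, 1 rose (11.1%) and 0 fell, where 2.39% of all genes tested rose, 0.344% fell and 2.73% were called in either direction. At an unadjusted p under 0.05 there were 3 members (Hpgd, Alox12 and Alox5ap) of 9, against 27.8% of all genes. The groups of libraries did not overlap for 2 of the 9, Hpgd and Alox12, against 5.65% of all genes. Log2 fold changes were above 0 for 5 of the 9, against 51.7% of all genes. Their median was 0.28, and that of all genes tested was 0.02. With 1 call, of a gene that entered the test through its α-KG counts, these counts say little about the set as a group.

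**Figure D1:**
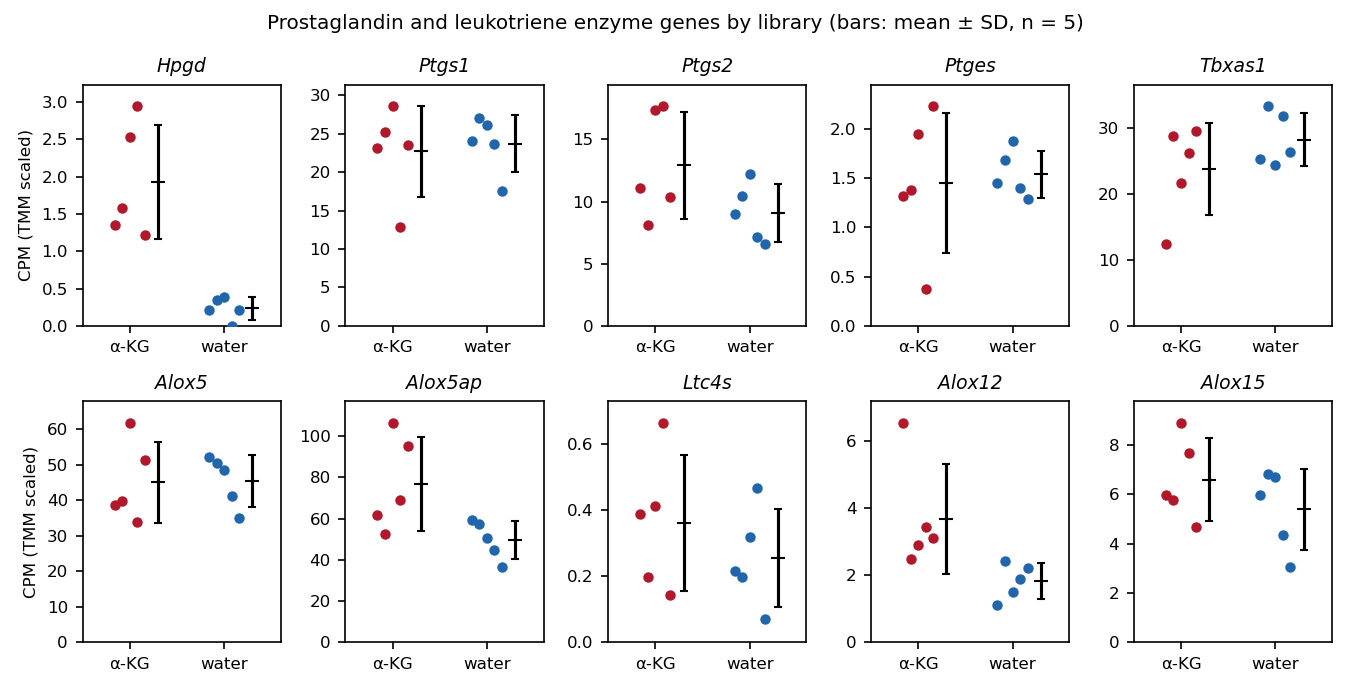
Level of each gene in CPM (TMM scaled) in the 5 α-KG libraries (red, left) and the 5 water libraries (blue, right), with mean ± SD beside the points and each axis starting at 0. The groups are apart for Hpgd (1.22 to 2.94 against 0 to 0.390 CPM) and, narrowly, for Alox12, and overlap for the other 8 genes.

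The level of Hpgd was 1.36, 1.58, 2.53, 2.94 and 1.22 CPM in α-KG 1 to 5, against 0.216, 0.347, 0.390, 0 and 0.214 CPM in water 1 to 5. Every α-KG library was above every water library, although Hpgd was scarce in both groups. These levels rest on 17 to 43 counts in the α-KG libraries and on 7, 7, 11, 0 and 3 counts in water 1 to 5. Counts as low as those in water would not pass the filter on low counts alone. Hpgd thus entered the test through the α-KG libraries, the group where it was high. The count of 0 in water 4 allows a level of up to 0.140 CPM, from 3 counts and for counting error only. Means were 1.93 ± 0.765 CPM in α-KG and 0.233 ± 0.152 CPM in water (SD, n = 5 each; log2 fold change 2.96 ± 0.49 SE, edgeR adjusted p = 0.0172), and the gene ranked 41 of 15126 by p. The call was lost without α-KG 3 (adjusted p = 0.0583), α-KG 4 (0.0552), water 1 (0.0780), water 2 (0.0617) or water 4 (0.0654), with log2 fold changes of 2.66 to 3.12. In those 5 fits 0 to 37 genes were called in all. With the share of Rn7s1 and Rn7s2 as a covariate Hpgd was at 2.50 (adjusted p = 0.417) and 0 genes were called. That share nearly followed the groups (24.0% to 31.0% in α-KG and 7.56% to 24.2% in water). This fit could thus barely separate the share from the treatment. The monocyte, macrophage and T and NK cell sums given above were also higher in α-KG on the whole, each highest in α-KG 4 as Hpgd was, and their part in the rise of Hpgd was not tested. Hpgd lies on chromosome 8 (56294585 to 56321043, plus strand, GRCm38), where the predicted gene model Gm45540 overlaps it on the same strand.

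The genes whose levels followed Hpgd most closely over the 10 libraries were Ace, Serpinb8 and Pid1. Likeness was the root mean square difference between log2 CPM profiles, each centred on its own mean, and was 0.60, 0.67 and 0.77 for these genes, where Hpgd itself had an SD of 1.599. Each of these genes rose as well, with log2 fold changes of 2.29, 2.19 and 1.79 (edgeR adjusted p = 0.0154, 0.0278 and 0.0154). A profile this close includes the group difference, so the likeness is not separate from it.

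The promoter windows of Hpgd and Alox12, the genes whose groups did not overlap, are shown 5′ to 3′ from RefSeq on GRCm38.p6, chr8:56294302-56294601 (plus strand) and chr11:70255321-70255620 (minus strand). Capitals mark the motif letters searched.
Hpgd: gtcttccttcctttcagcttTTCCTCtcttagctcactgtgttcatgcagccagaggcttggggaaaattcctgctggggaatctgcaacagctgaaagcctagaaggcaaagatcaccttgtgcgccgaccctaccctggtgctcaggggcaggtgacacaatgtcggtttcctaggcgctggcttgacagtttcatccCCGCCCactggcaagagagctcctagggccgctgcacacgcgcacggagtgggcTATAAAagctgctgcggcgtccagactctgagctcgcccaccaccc
Alox12: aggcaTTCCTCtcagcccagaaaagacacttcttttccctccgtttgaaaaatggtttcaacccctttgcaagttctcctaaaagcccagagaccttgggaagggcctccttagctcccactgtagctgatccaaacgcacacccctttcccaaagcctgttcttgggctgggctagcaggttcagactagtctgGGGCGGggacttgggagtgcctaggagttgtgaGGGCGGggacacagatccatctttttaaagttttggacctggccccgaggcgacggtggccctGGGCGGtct

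Each window runs from 250 bases before to 50 bases after the annotated start, and 8 of the 10 genes had one. Both strands were searched for the GATA motif AGATAA, the RUNX motif TGTGGT, the core GAGGAA bound by PU.1 and other ETS factors, the GC box GGGCGG, the AP-1 motif TGACTCA and the TATA box TATAAA. The PU.1 core stood in all 8 windows, against 28.3% of 32851 mouse promoter windows. The GC box was in 5 of 8 (35.7% of all), at 1 place in Hpgd and at 3 places in Alox12. The TATA box was in 2 of 8, Hpgd and Tbxas1 (13.6% of all), and the RUNX motif in 2 of 8, Ptgs2 and Ltc4s (16.8% of all). The GATA and AP-1 motifs were in 0 of 8 (11.2% and 5.20% of all). In Hpgd, the TATA box begins at base 5, counting the RefSeq start as base 1, and 29 bases before the GENCODE start, which lies 33 bases downstream of the RefSeq start. The windows of Ptges and Tbxas1 lie 26566 and 43582 bases downstream of the GENCODE gene starts, so they describe 1 of several starts. The matches describe letters in these windows and not binding.

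**Figure D2:**
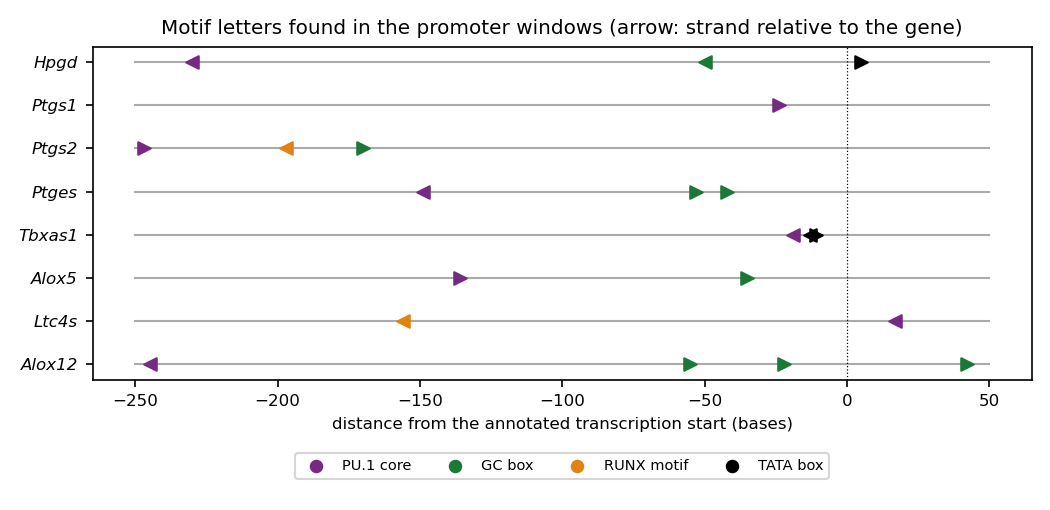
Motif matches in the 8 promoter windows by distance in bases from the RefSeq start (dotted line); arrows give the strand relative to the gene and colours the motif. The PU.1 core is in all 8 windows at differing distances, and Hpgd and Tbxas1 have the TATA box near the start.

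Cyclooxygenase and prostaglandin synthesis genes did not pass the test. Ptgs1, the constitutive cyclooxygenase, was at 23.1, 25.2, 28.5, 12.9 and 23.6 CPM in α-KG 1 to 5, against 24.0, 27.0, 26.1, 23.7 and 17.6 CPM in water 1 to 5. The groups overlapped, and α-KG 4 was the lowest of all 10. The log2 fold change was -0.06 ± 0.19 SE (edgeR adjusted p = 0.852; 95% interval -0.49 to 0.37) and turned to 0.0010 with upper quartile scaling.

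Ptgs2, the cyclooxygenase gene induced in inflammation, was at 11.1, 8.13, 17.3, 17.6 and 10.3 CPM in α-KG 1 to 5. In water 1 to 5 it was at 8.98, 10.5, 12.2, 7.16 and 6.57 CPM. Only α-KG 3 and α-KG 4 lay above all water libraries. The means were 12.9 ± 4.32 CPM in α-KG and 9.07 ± 2.33 CPM in water (SD, n = 5 each), with a log2 fold change of 0.50 ± 0.24 SE (edgeR adjusted p = 0.192; 95% interval -0.05 to 1.04). Within a library, the ratio of Ptgs2 to Ptgs1 CPM was 0.322 to 1.37 in α-KG, with 1.37 in α-KG 4 and at most 0.607 in the others, and 0.302 to 0.467 in water.

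Ptges, the inducible synthase of prostaglandin E, was at 1.32, 1.38, 1.95, 0.380 and 2.23 CPM in α-KG 1 to 5, against 1.45, 1.69, 1.88, 1.40 and 1.28 CPM in water 1 to 5. The α-KG libraries spread on both sides of the water libraries, and α-KG 4, the shallowest library, held 4 counts. The log2 fold change was -0.08 ± 0.33 SE (edgeR adjusted p = 0.897; 95% interval -0.83 to 0.68), and 0.13 without α-KG 4.

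Tbxas1, the thromboxane synthase gene, was at 12.5, 28.8, 21.7, 26.1 and 29.5 CPM in α-KG 1 to 5 and at 25.3, 33.2, 24.4, 31.7 and 26.3 CPM in water 1 to 5. The α-KG 1 library stood lowest, and the others overlapped the water libraries. The log2 fold change was -0.25 ± 0.20 SE (edgeR adjusted p = 0.423; 95% interval -0.72 to 0.22), and -0.09 without α-KG 1. Hipk2 overlaps the start of Tbxas1 on the opposite strand, and no source used here says whether reads were counted by strand.

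**Figure D3:**
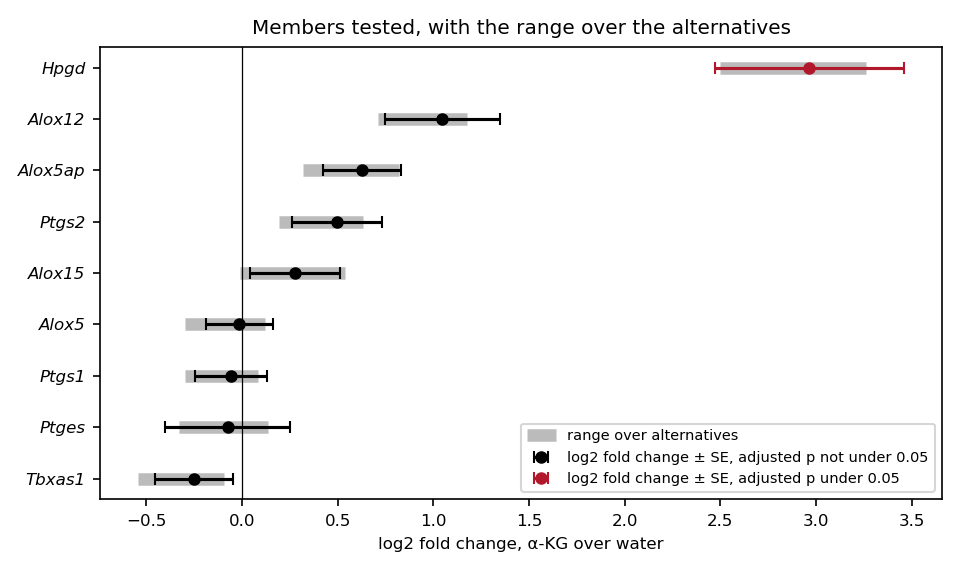
Log2 fold change, α-KG over water, with SE for the 9 genes tested (red, adjusted p under 0.05), and in grey the range over the alternative settings and left-out libraries. Hpgd stands at 2.96 with a range of 2.50 to 3.26, while the ranges of Alox15, Alox5, Ptgs1 and Ptges cross 0.

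In the leukotriene branch, Alox5ap was above every water library in 4 of 5 α-KG libraries while Alox5 differed little, and neither passed the test. Alox5, encoding 5-lipoxygenase, was at 38.6, 39.7, 61.8, 33.8 and 51.3 CPM in α-KG 1 to 5, against 52.2, 50.6, 48.5, 41.1 and 35.0 CPM in water 1 to 5. Its groups overlapped almost fully. The log2 fold change was -0.01 ± 0.17 SE (edgeR adjusted p = 0.964; 95% interval -0.42 to 0.39), and 0.04 with upper quartile scaling.

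Alox5ap, which encodes the protein that presents arachidonic acid to 5-lipoxygenase, was at 61.6, 52.5, 106, 69.3 and 95.1 CPM in α-KG 1 to 5. In water 1 to 5 it was at 59.2, 57.4, 50.5, 45.0 and 36.8 CPM. Of the α-KG libraries, only α-KG 2 fell within the range of the water libraries. Means were 77.0 ± 22.9 CPM in α-KG and 49.8 ± 9.20 CPM in water (SD, n = 5 each; log2 fold change 0.63 ± 0.20 SE, edgeR adjusted p = 0.0906), and without α-KG 2 the gene passed at 0.74 (adjusted p = 0.0280). In that fit 2683 of 15384 genes were called, against 413 of 15126 in the main analysis. Monocyte markers, whose sum was 385 CPM in α-KG 2 and 601 to 746 CPM in the other α-KG libraries, were also lowest in α-KG 2 among these. Their part was not tested. The nearest profiles over the 10 libraries were those of Xdh, the lysozyme gene Lyz2 and Mtus1 (root mean square differences of 0.129, 0.129 and 0.132 on the log2 scale). Alox5ap itself had an SD of 0.464. The log2 fold changes of these genes were 0.49, 0.64 and 0.45, so their likeness includes the group difference. The antisense model Gm19719 overlaps Alox5ap on chromosome 5.

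Within a library, where scaling cancels out, the ratio of Alox5ap to Alox5 CPM was 1.59, 1.32, 1.72, 2.05 and 1.85 in α-KG 1 to 5, against 1.13, 1.13, 1.04, 1.09 and 1.05 in water 1 to 5. The water libraries kept close together, and every α-KG library lay above them. The mean ratio was 1.71 ± 0.275 in α-KG and 1.09 ± 0.0434 in water (SD, n = 5 each). This pair was chosen after the values were seen and was given no test.

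**Figure D4:**
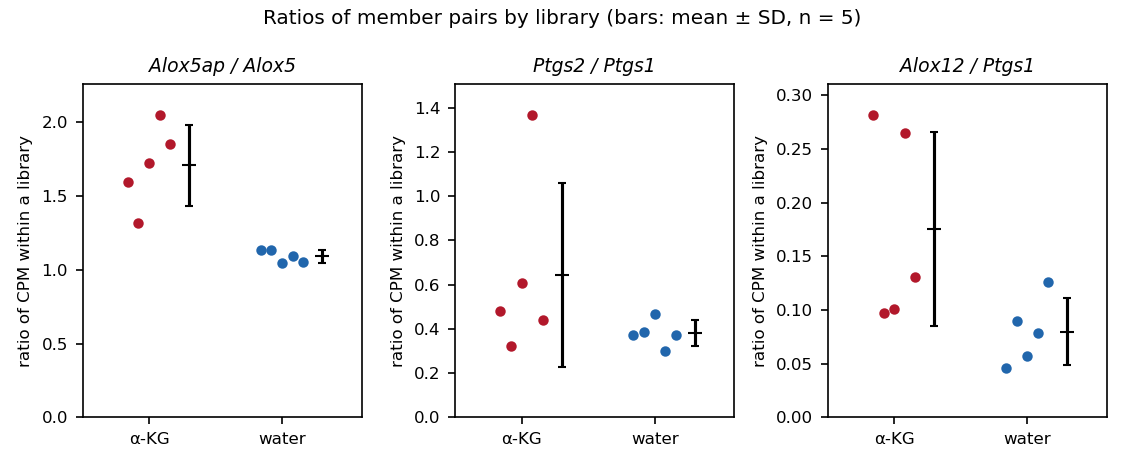
Ratio of CPM between pairs of genes within each library, for α-KG (red, left) and water (blue, right) with mean ± SD, each axis starting at 0. Alox5ap to Alox5 is 1.32 to 2.05 in α-KG and 1.04 to 1.13 in water, while the other pairs overlap.

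Ltc4s, the leukotriene C synthase gene, was near the limit of these libraries and was not tested. It was at 0.144 to 0.664 CPM in α-KG (median 0.388) and 0.0714 to 0.468 CPM in water (median 0.216), from 1.07 to 10.15 counts. The groups overlapped. The antisense gene Gm26542 covers most of Ltc4s. Of 10 markers of basophils and mast cells, cell types known to express Ltc4s, 7 could be tested, and Tpsb2, Cma1 and Il4 could not. Of the 7, 0 passed and 3 had an unadjusted p under 0.05 (Prss34, Cpa3 and Cd200r3), against 27.8% of all genes. Their log2 fold changes were above 0 in 7 of 7, with a median of 0.75. Their sum was 183 to 413 CPM in α-KG and 155 to 294 CPM in water, and the part of these cells in the level of Ltc4s was not tested.

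Alox12, the platelet lipoxygenase, was at 6.52, 2.46, 2.89, 3.42 and 3.09 CPM in α-KG 1 to 5, against 1.11, 2.43, 1.49, 1.87 and 2.21 CPM in water 1 to 5. The groups did not overlap, but α-KG 2 and water 2 nearly met and α-KG 1 stood far above the rest. The mean was 3.68 ± 1.63 CPM in α-KG and 1.82 ± 0.534 CPM in water (SD, n = 5 each; log2 fold change 1.05 ± 0.30 SE, edgeR adjusted p = 0.0703). Without α-KG 1 the log2 fold change was 0.71 (adjusted p = 0.143), and without α-KG 2 it was 1.17 (adjusted p = 0.0274). DESeq2, and edgeR with no filter on low counts, also called it (adjusted p = 0.0318 and 0.0458). Those settings changed the number of calls over the whole table, from 413 of 15126 genes in the main analysis. It was 2683 of 15384 without α-KG 2, 1654 of 15966 with DESeq2 and 582 of 32183 with no filter. Of 15 platelet and megakaryocyte markers, 0 passed the test and 5 had an unadjusted p under 0.05, against 27.8% of all genes. The log2 fold changes of these 5 were above 0 for Ppbp (0.82), Tubb1 (1.09) and Gp6 (0.82) and below 0 for Gp9 (-0.35) and Vwf (-0.36). Over all 15, log2 fold changes were above 0 for 10, against 51.7% of all genes, with a median of 0.24. The marker sum, in which Itga2b, Itgb3 and Vwf had the highest levels, was 109 to 149 CPM in α-KG and 106 to 126 CPM in water. It was highest in α-KG 1, the library that also stood apart in B cell markers and was lowest in erythroid markers. The part of the platelet and megakaryocyte markers in Alox12 was not tested. The ratio of Alox12 to Ptgs1, both used by platelets, was 0.0977 to 0.282 in α-KG and 0.0463 to 0.126 in water and overlapped. Fbn1, Plxna4 and Palld had the nearest profiles (root mean square differences of 0.173, 0.180 and 0.235 on the log2 scale), where Alox12 itself had an SD of 0.671. Their log2 fold changes were 1.05, 0.95 and 1.04, near that of Alox12, so this likeness is not separate from the group difference.

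Alox15 was at 5.98, 5.77, 8.90, 7.68 and 4.67 CPM in α-KG 1 to 5 and at 5.99, 6.84, 6.70, 4.35 and 3.07 CPM in water 1 to 5. The groups overlapped widely. The log2 fold change was 0.28 ± 0.23 SE (edgeR adjusted p = 0.444), and -0.01 with library totals alone, a scaling that put the median of all genes at -0.22. Eosinophil markers summed to 32.4 to 76.9 CPM in α-KG and 39.1 to 90.6 CPM in water, and 0 of 7 tested passed. At an unadjusted p under 0.05 there were 2, against 27.8% of all genes, and both were below 0 (Prg3 at -0.65 and Epx at -0.62). Over the 7, 1 log2 fold change was above 0, against 51.7% of all genes, and the median was -0.40. Their part in Alox15 was not tested. On chromosome 11, Alox12 (70241457 to 70255353), Alox12e (70315610 to 70322628) and Alox15 (70344152 to 70352031) follow each other on the minus strand. Alox12e, an epidermal lipoxygenase gene between them, was at 0.881 ± 0.537 CPM in α-KG and 0.310 ± 0.143 CPM in water (SD, n = 5 each; log2 fold change 1.37 ± 0.44 SE, edgeR adjusted p = 0.0895). Alox12e had 8 to 21 counts in the α-KG libraries and 3 to 14 counts in the water libraries. Counts of Alox12, Alox15 and Alox12e were whole numbers in all 10 libraries.

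Levels can be set side by side per kilobase of exon (all annotated exons joined). In α-KG, Alox5ap was highest at 54.2 ± 16.1 CPM per kb, then Alox5 at 10.97 ± 2.76 and Ptgs1 at 5.84 ± 1.51 CPM per kb (SD, n = 5). Ptgs2, Alox15 and Tbxas1 followed at 2.82 ± 0.943, 2.69 ± 0.684 and 2.61 ± 0.768 CPM per kb and could not be ordered. Hpgd came next at 1.14 ± 0.454 CPM per kb, within the spread of Alox12 (0.900 ± 0.399) and above Ptges (0.369 ± 0.181) and Ltc4s (0.356 ± 0.203). In water, the order again began with Alox5ap (35.0 ± 6.48 CPM per kb), Alox5 (11.1 ± 1.76) and Ptgs1 (6.10 ± 0.953), followed by Tbxas1 (3.098 ± 0.441). The place of Tbxas1 in both groups depends on the length used, as joined exons can exceed a single transcript. Its joined exons were the longest of the set, 9094 bases against 3884 for Ptgs1. Before division by length, its mean in water was 28.2 CPM, against 23.7 CPM for Ptgs1. Alox15 and Ptgs2, at 2.20 ± 0.665 and 1.98 ± 0.508 CPM per kb, did not differ beyond their spread. The lowest levels in water were those of Alox12 (0.446 ± 0.131 CPM per kb), Ptges (0.392 ± 0.0608), Ltc4s (0.251 ± 0.146) and Hpgd (0.139 ± 0.0904), where neighbours lay within 1 SD of each other.

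Other genes of the pathway were taken from 4 lists, and 47 of the 72 genes found in the table could be tested. Of these 47, 2 rose (4.26%, against 2.39% of all genes) and 0 fell, with a median log2 fold change of 0.18. Both are in the list for breakdown and transport, where 2 of 12 rose and the median was 0.31. Slco2b1, an organic anion transporter gene, was at 2.14, 1.18, 2.65, 2.56 and 1.58 CPM in α-KG 1 to 5, against 0.617, 0.496, 0.638, 0.889 and 0.4996 CPM in water 1 to 5. These levels rest on 22 to 54.76 counts in the α-KG libraries and 7 to 19.8 counts in the water libraries. The groups did not overlap (log2 fold change 1.66 ± 0.29 SE, edgeR adjusted p = 0.0188). The call was lost without α-KG 3, α-KG 4, water 1, water 2, water 4 or water 5 (adjusted p = 0.0528 to 0.0792, log2 fold changes 1.54 to 1.81). Cyp4f16, of the family that hydroxylates leukotrienes and other fatty acids, was at 6.33, 3.402, 6.54, 9.11 and 6.75 CPM in α-KG 1 to 5, against 2.69, 2.68, 4.47, 2.25 and 1.78 CPM in water 1 to 5. Only α-KG 2 overlapped the water libraries (log2 fold change 1.18 ± 0.28 SE, edgeR adjusted p = 0.0448), and the call ended without any 1 library other than α-KG 2 and water 3 (adjusted p = 0.0684 to 0.137, log2 fold changes 1.03 to 1.17). RLE scaling, library totals and limma voom also ended it (adjusted p = 0.0508, 0.0769 and 0.0638). As for Hpgd, the covariate of Rn7s1 and Rn7s2, which nearly followed the groups, ended both calls. The edgeR adjusted p was 0.417 for both genes, with log2 fold changes of 1.63 for Slco2b1 and 1.37 for Cyp4f16. Among the α-KG libraries, both genes were lowest in α-KG 2, as were the monocyte and macrophage marker sums (385 and 130 CPM). Those sums and Cyp4f16 were highest in α-KG 4, while Slco2b1 was highest in α-KG 3. The part of these cells in the rise of Slco2b1 and Cyp4f16 was not tested. Dpep2, a dipeptidase gene of leukotriene breakdown, was at 1.40 ± 0.42 SE (adjusted p = 0.0787).

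Among 12 tested genes that release arachidonic acid or shape its stores, 0 passed and 6 had an unadjusted p under 0.05, against 27.8% of all genes (edgeR, median log2 fold change -0.03). The phospholipase gene Pla2g4c was at 3.85 ± 1.80 CPM in α-KG and 7.65 ± 1.24 CPM in water (SD, n = 5 each; log2 fold change -1.001 ± 0.31 SE, adjusted p = 0.0824). Lpcat3, which loads polyunsaturated fatty acids into phospholipids, was at 18.9 ± 7.37 CPM in α-KG and 33.7 ± 7.94 CPM in water (log2 fold change -0.83 ± 0.26 SE, adjusted p = 0.0825), and Pla2g15 was at 0.52 ± 0.18 (adjusted p = 0.106). Pla2g4a, the cytosolic phospholipase that supplies most eicosanoid synthesis, was at 0.11 ± 0.17 (adjusted p = 0.689), and at -0.16 with library totals alone. Pla2g2e was listed at 0 in all 10 libraries, where 3 counts would be 0.0926 to 0.285 CPM.

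Of 12 other synthesis genes tested, 0 passed and 4 had an unadjusted p under 0.05, against 27.8% of all genes (edgeR, median log2 fold change 0.04). Lta4h, which makes leukotriene B, was at 68.5 ± 14.99 CPM in α-KG and 69.4 ± 8.70 CPM in water (SD, n = 5 each; log2 fold change -0.02 ± 0.16 SE, adjusted p = 0.950), and at 0.04 with upper quartile scaling. Akr1b3 was at 0.49 ± 0.14 (adjusted p = 0.0686), Mgst3 at -0.99 ± 0.41 (adjusted p = 0.148) and the prostaglandin D synthase gene Hpgds at 0.63 ± 0.30 (adjusted p = 0.191). Mgst3 was lowest in α-KG 1 among the α-KG libraries (5.55 CPM) and in water 3 among the water libraries (14.4 CPM). So were Lpcat3 (11.2 and 23.1 CPM), Pla2g4c (1.40 and 5.53 CPM) and the erythroid marker sum. Of the 10 erythroid markers, 3 had a log2 fold change above 0 and the median was -0.66. Their part in Mgst3, Lpcat3 and Pla2g4c was not tested. Ptgds and the prostacyclin synthase gene Ptgis were not tested, with at most 5 counts in a library.

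Of 11 receptor genes tested, 0 passed and 3 had an unadjusted p under 0.05, against 27.8% of all genes (edgeR, median log2 fold change 0.30). Cmklr1, a receptor gene for chemerin, was at 2.13 ± 1.22 CPM in α-KG and 0.702 ± 0.312 CPM in water (SD, n = 5 each; log2 fold change 1.54 ± 0.43 SE, adjusted p = 0.0671). Ptger1 and Ptger4, for prostaglandin E, were at 0.61 ± 0.21 and 0.23 ± 0.14 (adjusted p = 0.105 and 0.285), and the cysteinyl leukotriene receptor gene Cysltr1 was at 0.997 ± 0.40 (adjusted p = 0.137). Ltb4r1, for leukotriene B, was at 25.6 ± 6.55 CPM in α-KG and 24.5 ± 2.84 CPM in water (0.06 ± 0.17, adjusted p = 0.827), turning to -0.20 with library totals alone. The thromboxane receptor gene Tbxa2r was at -0.05 ± 0.22 (adjusted p = 0.936), and at 0.02 with upper quartile scaling. Oxgr1, whose product is known as a receptor of both α-KG and a cysteinyl leukotriene, had 1 count in α-KG 2, 1 in α-KG 4 and 0 in the other 8 libraries, so it was not detectable at this depth beyond single reads.

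**Figure D5:**
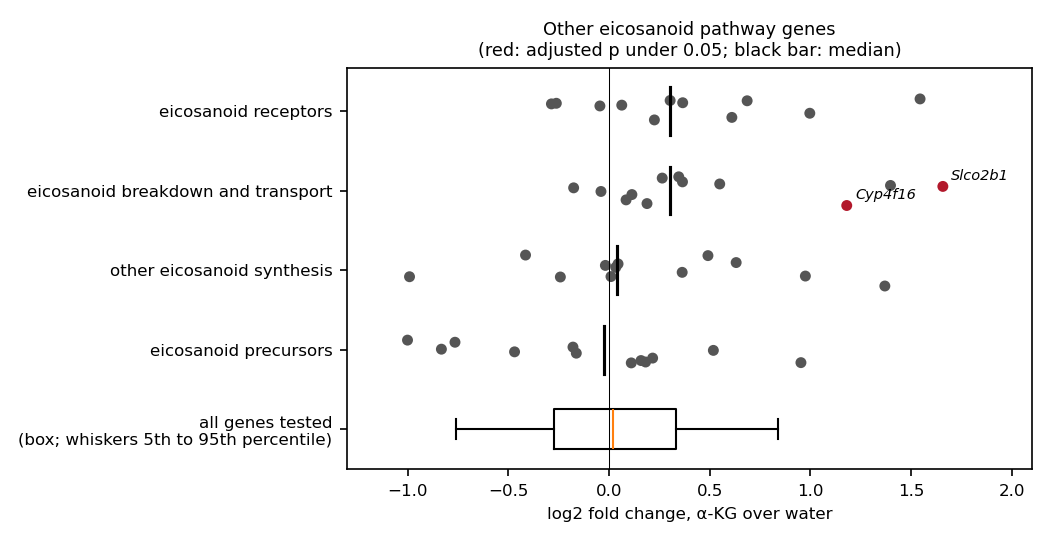
Log2 fold change, α-KG over water, of the 47 tested genes in the 4 pathway lists (points; red, adjusted p under 0.05), with each list's median as a black bar and all genes tested as a box. Only Slco2b1 and Cyp4f16 passed, and the medians are -0.03, 0.04, 0.31 and 0.30 from the precursor list to the receptor list.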

How the data were processed

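RNA of marrow cells was extracted by column, cleared of ribosomal RNA with RNase H and sequenced on an Illumina instrument, per the labels. The submitters' processing notes name bcl2fastq, DRAGEN and the build GRCm38, and no source used here names the annotation, quantifier or strand setting. The authors deposited estimated counts per gene, unscaled, of which 10.3% of all values (zeros included) and 24.8% of those above 0 are not exactly whole (tolerance 0); Ptgs1 was exactly whole in 1 library. Counts were rounded. The default filter of edgeR 4.0.16 (R 4.3.3; minimum count 10, minimum total 15) kept 15126 of 32256 genes with counts, and Ltc4s failed it. The quasi-likelihood F test (TMM, robust, two-sided) was adjusted by Benjamini-Hochberg, with a threshold of 0.05. SE is the absolute log2 fold change over the square root of F, and 95% intervals use t on 8 residual degrees of freedom. Alternatives used DESeq2 1.42.0 and limma 3.58.1 among others. The steps were tested on simulated data. Of planted changes, 10.7% were called at 1.5-fold, 60.7% at 2-fold, 88.7% at 4-fold and 89.3% at 8-fold. A gene with a small change can thus fail to pass. The rates are for simulated counts and are not given by expression level, so they may not hold for scarce members. They may also not hold for these libraries, where the number of calls ran from 0 to 2683 with 1 library left out. Positions and exon lengths came from GENCODE M21. All 10 members are named; of the pathway lists, genes past the threshold, the 3 with the smallest p in each list and 10 fixed genes. Members, lists and rules were chosen with earlier results of these data known. For profiles, 2 was added as prior count before the log2.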

Additional observations from a re-analysis of the deposited data

Results flagged for a closer look

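Alox12 was at 6.52 CPM in α-KG 1, far above the 2.46 to 3.42 CPM of the other α-KG libraries: the gap to the nearest library was 0.766 of the range of the group, above the critical value of 0.71 for 5 samples. It was the 1 such value among 18 groups of libraries screened over the 9 members tested, and chance gives about 1 in 20 groups. The same library stood apart in several marker sums: against the other α-KG libraries, B cell markers were at 467 CPM (84.7 to 178 CPM in the others), stromal and endothelial markers at 143 CPM (63.0 to 85.2 CPM), platelet markers at 149 CPM (109 to 124 CPM) and erythroid markers at 13598 CPM (22717 to 46295 CPM). It also had the lowest Tbxas1 (12.5 CPM).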

How the results depend on the processing

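No paired analysis was possible because the groups share no sample number and nothing in the labels links a library of one to a library of the other. The log2 fold change of Hpgd was 2.50 to 3.26 over 19 alternatives and passed in 13 of them (adjusted p = 1.20e-06 to 0.417); it was 2.66 to 3.26 with 1 library left out. Hpgd could not be fitted with the filter of a CPM of at least 1 in 5 libraries, which it failed, so 0 members passed there. That filter took CPM from library totals, without TMM scaling. Hpgd missed it narrowly, as α-KG 5 held 17 counts of Hpgd in a total of 17017038. With TMM scaling, Hpgd was at 1.22 to 2.94 CPM in the α-KG libraries. With the Rn7s1 and Rn7s2 share as a covariate, which nearly followed the groups, Hpgd was at 2.50 and again 0 members passed. With no filter and with DESeq2, 2 members passed (Hpgd and Alox12), and 0 to 3 did with 1 library left out. The number of genes called over the whole table was 413, and it was 1163 with library totals alone (10.1% of them higher in α-KG, against 87.4%), 1654 with DESeq2 (58.5% higher), 267 with limma voom and 0 with the covariate (1810 at an unadjusted p under 0.05). With 1 library left out it was 0 to 2683, and where it was 0, 3232 to 3672 genes had an unadjusted p under 0.05. Without α-KG 2, where it was 2683, 60.0% were higher in α-KG; with no filter 73.5% were.

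Of 537 alternative fold changes of the named genes, 461 kept their direction and side of the threshold, 25 lost a call, 21 gained one and 30 changed sign, none of which was called in the main analysis; the cause was not tested. With upper quartile scaling, Alox5, Ptgs1, Lta4h and Tbxa2r were at 0.043, 0.0010, 0.040 and 0.020. With library totals alone, Alox15, Pla2g4a and Ltb4r1 were at -0.013, -0.16 and -0.20. With the covariate, Alox5, Ptgs1, Lta4h, Tbxa2r and Ptger4 were at 0.12, 0.052, 0.11, 0.28 and -0.013. With 1 library left out, Alox5 ran from -0.15 to 0.073, Ptgs1 from -0.15 to 0.083, Ptges from -0.26 to 0.13, Lta4h from -0.13 to 0.082, Ltb4r1 from -0.057 to 0.19 and Tbxa2r from -0.15 to 0.034. Depth limits Hpgd in water and Ltc4s in both groups, at 11 counts or fewer in a library. Counts were also low for some pathway genes, such as Slco2b1 and Alox12e, with 7 to 19.8 and 3 to 14 counts in the water libraries.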
